A study of Mus musculus with 4 samples.

Results

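Type 2 conventional dendritic cells of mouse melanoma were examined as 224 cells, 78 from tumours treated with IRF4-transduced T cells and 146 from control tumours, of 12047 cells kept in the 2 libraries of endogenous leukocytes and 15132 in all 4 libraries of the series. B16-F10 is a transplantable melanoma line of C57BL/6 mice. On day 3 the tumours received Pmel-1 CD8 T cells, whose transgenic receptor recognises the melanoma antigen gp100. In the IRF4 arm these T cells carried a vector for the transcription factor IRF4 with GFP, and in the control arm a vector for GFP alone. On day 14 the transferred T cells and the endogenous CD45+ cells of each arm were sorted, and each of the 4 groups gave 1 droplet library of 3' RNA ends. The dendritic cells described here belong to the host and had not been given a vector. How many tumours went into a library is not given in the labels.

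A cell was a member if its barcode held at least 1000 unique molecular identifiers (UMIs, each counting 1 captured RNA molecule) from at least 500 genes, with at most 10% from mitochondrial genes, at least 1 UMI of Cd209a and at least 20 UMIs of H2-Ab1 per 10000. It had fewer than 2 UMIs of each of 6 gene pairs or genes that mark other cells (Xcr1 with Clec9a, Fscn1 with Ccl22, Siglech, Ace with Adgre4, Ccl7 with Vcan, and Inhba with Nos2), and none of the Cd3 chains or Cd79a. These genes fixed the membership, so their levels describe the rule and are no result.

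Conventional dendritic cells arise from a bone marrow precursor under the cytokine FLT3L and divide into type 1 cells, which depend on IRF8 and BATF3 and cross-present antigen to CD8 T cells, and type 2 cells, which depend largely on IRF4, display peptides on MHC class II and prime CD4 T cells. Type 2 cells are diverse and share many genes with monocyte-derived cells. In tumours, interferons made by T cells and other cells induce chemokines such as CXCL9 and CXCL10 in myeloid cells, and these attract T cells that carry CXCR3.

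The members made up 1.22% of 6371 kept cells in the IRF4 arm (95% exact Clopper-Pearson interval 0.969% to 1.53%) and 2.57% of 5676 in the control arm (2.18% to 3.02%). The ratio of these shares was 0.476 (0.362 to 0.625). Type 1 cells, cut by Xcr1 and Clec9a, numbered 47 and 90, with a like ratio of 0.465 (0.328 to 0.661). Type 2 cells therefore formed 62.4% of type 1 plus type 2 cells in the IRF4 arm (53.3% to 70.9%) and 61.9% in the control arm (55.3% to 68.1%). Monocyte-derived cells cut by Ccl7 and Vcan numbered 461 and 1058, and mature dendritic cells 18 and 19. When cells with a transcript of T, NK or B cells (Cd3d, Cd3e, Cd3g, Nkg7 or Cd79a) were left out of the denominator, the share was 5.86% against 6.24% in controls, a ratio of 0.939 (0.712 to 1.24). The share of all leukocytes was thus lower in the IRF4 arm, while the share of cells without lymphoid transcripts lay within counting error between the arms. All intervals here and below are at 95% and cover counting error only: with 1 library per arm no difference between the arms could be tested against replicates, and a difference between the conditions cannot be told apart from one between these libraries.

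**Figure D1:**
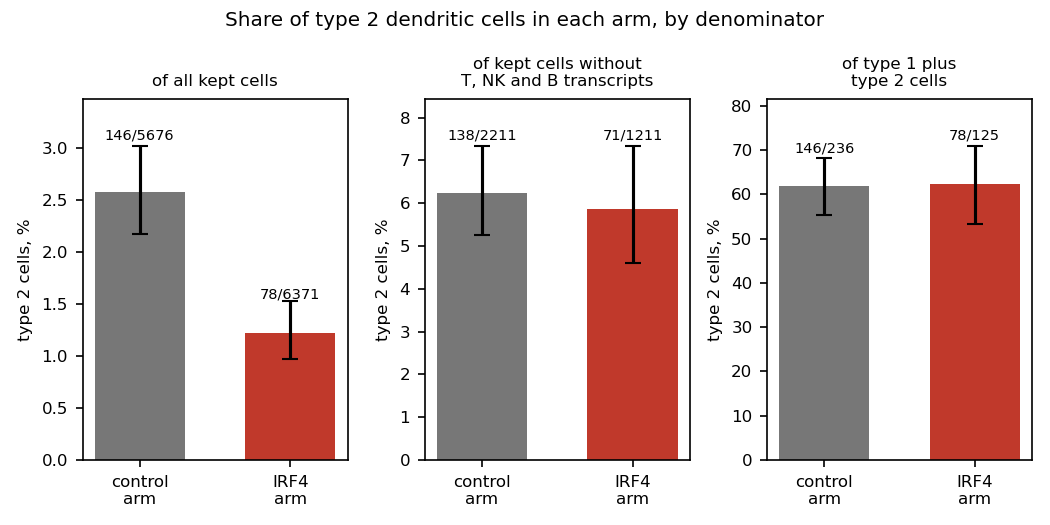
Share of type 2 dendritic cells in the control arm (grey) and the IRF4 arm (red), in percent, with 95% exact intervals; the fraction above a bar gives members and denominator. The arms differ over all kept cells (1.22% against 2.57%), and the intervals overlap over cells without lymphoid transcripts and over type 1 plus type 2 cells.

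Member cells were deeply sequenced. Their median was 14393 UMIs in the IRF4 arm and 19377.5 UMIs in controls, against 8437 and 10521 over all kept cells of those libraries, and the members together held 1288469 and 2951473 UMIs. Median mitochondrial shares were 2.89% and 2.92%. Of the sorted T cell libraries, which should hold no dendritic cells, that of the IRF4 arm contained 1 cell meeting the rule among 572 kept and that of the control arm 3 among 2513. The 2 endogenous libraries shared 18 barcodes, none of them a member's. Near the limits of the rule, 5 IRF4 members and 13 control members had exactly 1 Cd209a UMI, and 115 and 152 cells met every other condition with 0. Those cells without Cd209a carried Clec10a at 105 and 95.9 CPM (UMIs per 1000000) and Lyz2 at 6114 and 7527 CPM. For H2-Ab1, 4 and 7 members lay between 20 and 30 per 10000, and 7 and 6 otherwise matching cells between 10 and 20. Under 40 per 10000 lay 15 IRF4 members (19.2%) and 12 control members (8.22%), an uneven share. Those members had Lyz2 at 6202 and 3274 CPM, Irf8 at 628 and 155 CPM and Mgl2 at 0 and 10.7 CPM. Another 45 and 91 cells were left out by a Cd3 or Cd79a UMI alone.

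The cells carried genes known for type 2 dendritic cells, some at like levels in the arms and others not. Levels are sums of UMIs over the members of a library, in CPM. Clec10a, a galactose-binding lectin, stood at 482 CPM in the IRF4 arm and 475 CPM in the control arm, against 38.3 and 26.0 CPM in type 1 cells. Klrd1, a lectin-like receptor chain also made by NK cells, stood at 528 and 521 CPM, against 79.2 and 42.2 CPM in type 1 cells. Cd7, a surface glycoprotein better known from T cells, stood at 191 and 168 CPM, against 5.83 and 7.92 CPM. Each of these 3 genes was thus far above its level in type 1 cells in both libraries.

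The decoy receptor Il1r2 was at 248 and 258 CPM, the calcium-binding S100a4 at 2848 and 3016 CPM, and the inhibitory receptor Sirpa at 169 and 193 CPM, against 36.7 and 33.9 CPM of Sirpa in type 1 cells. Cd209d, a neighbour of Cd209a in the same lectin family, was at 120 and 69.1 CPM, past 1.5 times between the arms, and had no UMI in type 1 cells. Whether similar sequences within this family affected the counts of either gene was not tested. Of 23 type 2 identity genes in the files, 16 were at least 1.5 times as high as in type 1 cells in both libraries and 3 at most 1/1.5 times as high, where 10.2% and 6.59% of all 8077 genes compared were. Of 15 type 1 identity genes, 14 were lower in both libraries, but 2 of the 15 are genes of the rule, whose order was fixed by the cut. Against monocyte-derived cells, 19 of the 23 type 2 genes were higher in both libraries and 2 lower, where 9.73% and 12.1% of all 8095 genes were. The 10 genes furthest above type 1 cells in both libraries included, beside lectins, Cd7 and S100a4, the membrane protein Tmem176a (203 and 216 CPM, against 10.8 and 24.1 CPM), Mcemp1 (171 and 123 CPM, against 19.2 and 1.13 CPM), Emilin2 (140 and 174 CPM, against 15.8 and 22.6 CPM) and the AP-1 subunit Fosl2 (69.1 and 71.8 CPM, against 6.67 and 7.54 CPM). The 10 furthest below included Gcsam, with no UMI in type 2 cells and 109 and 138 CPM in type 1 cells, the double-stranded RNA sensor Tlr3 (3.10 and 4.40 CPM, against 135 and 228 CPM), the adhesion molecule Cadm1 (2.33 and 2.03 CPM, against 85.8 and 133 CPM) and the integrin Itgae (6.21 and 11.5 CPM, against 192 and 334 CPM). Several of the 10 genes above type 1 cells were not particular to type 2 cells. Clec4n (315 and 526 CPM), Emilin2 (333 and 328 CPM) and Fosl2 (122 and 98.4 CPM) were higher in monocyte-derived cells. Tmem176a was higher in mature dendritic cells (992 and 884 CPM). S100a4 stood at 2561 and 2263 CPM in monocyte-derived cells, and Mcemp1 at 142 and 79.4 CPM. Cd209d, Cd7, Clec10a, Mgl2 and Tmem176a were above monocyte-derived cells by 1.5 times in both libraries. These populations were cut by markers, so this describes them and tests nothing.

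Transcription factors separated the same way. Irf4 itself, which type 2 cells need and which was the vector's cargo in the transferred T cells, was low in the endogenous type 2 cells, at 25.6 CPM in the IRF4 arm and 21.7 CPM in the control arm (ratio 1.18, 0.752 to 1.82), with UMIs in 22 of 78 and 43 of 146 cells. After each cell was thinned to 2000 UMIs, 6.41% and 4.11% of members had an Irf4 UMI, against 1.22% and 1.09% of T cells treated alike. Type 1 cells had 2.50 and 1.13 CPM. Irf8 was at 227 and 111 CPM, far under the 1802 and 2056 CPM of type 1 cells. Klf4 was at 240 and 191 CPM against 67.5 and 76.6 CPM, and Batf3 at 53.6 and 53.9 CPM against 197 and 201 CPM. Flt3, the receptor for FLT3L, was at 62.1 and 63.4 CPM, against 153 and 203 CPM in type 1 cells and 4.34 and 1.92 CPM in monocyte-derived cells.

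**Figure D2:**
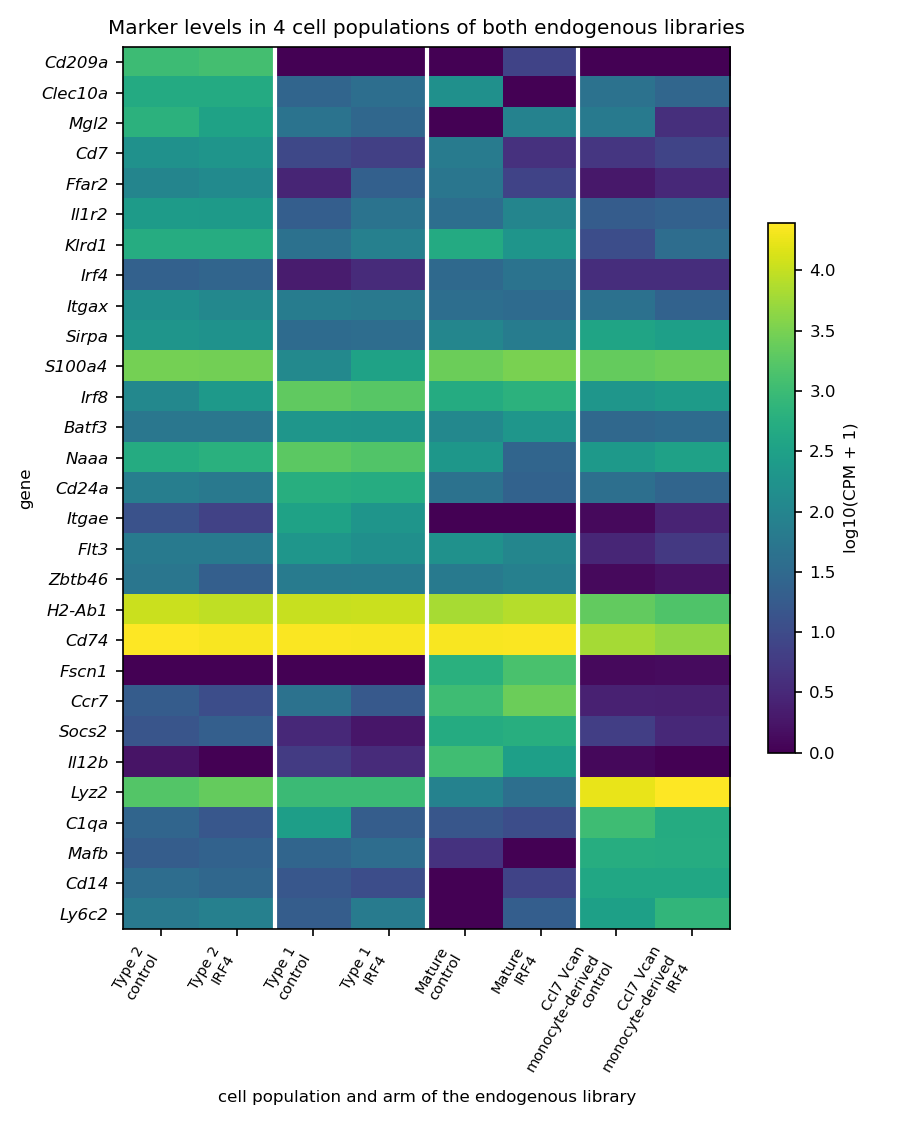
Level of 29 marker genes in 4 cell populations of each endogenous library, as log10 of CPM plus 1 (colour). Type 2 cells carry Clec10a, Mgl2, Klrd1 and Cd7 in both arms, with little Irf8 beside type 1 cells and little Lyz2 beside monocyte-derived cells.

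Markers of other cells ranged from near 0 to high levels of some myeloid genes. Of the defining genes, Fscn1 had 0 UMIs in both arms, Xcr1 0.776 and 0.678 CPM and Siglech 0.776 and 1.36 CPM, as the rule required. Summed levels of 7 neutrophil genes were 6.21 and 9.15 CPM, and of 6 mast cell and basophil genes 0 and 4.40 CPM. Other lists were not near 0: 15 type 1 genes summed to 1325 and 1232 CPM, 10 plasmacytoid genes to 768 and 481 CPM, 15 mature dendritic cell genes to 323 and 385 CPM and 7 B cell genes to 130 and 120 CPM. Their part in the results below was not tested. The sum of 15 macrophage genes was 2940 and 2573 CPM, against 30704 and 27140 CPM in monocyte-derived cells, and most of it was Lyz2, at 2231 and 1660 CPM. Lyz2 was uneven: the median cell had 7.03 and 2.12 UMIs per 10000, and the highest cells 300.3 and 239.8. At 50 or more per 10000, 8 members of the IRF4 arm and 19 of the control arm overlap in this gene with monocyte-derived cells, and C1qa, a complement gene of macrophages, came from 2 and 11 members. The sum of 12 monocyte genes was 7038 and 6139 CPM, against 12176 and 8868 CPM in monocyte-derived cells. The label type 2 dendritic cell thus rests on the identity genes set against type 1 and monocyte-derived cells above. The 23 type 2 identity genes summed to 4896 and 5472 CPM, less than the monocyte genes. Ly6c2, a monocyte surface gene, had a UMI in 32 IRF4 members (41.0%) and 48 control members (32.9%), and a minority of members had much Lyz2.

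Between the arms, 449 of 7570 genes measured (at least 10 CPM in either library) were higher in the IRF4 arm by 1.5 times or more (5.93%) and 617 were lower (8.15%), with a median log2 ratio of -0.04 over all of them. Below, a gene is called higher or lower only past this limit. The list of interferon-gamma response genes had 13 of 22 measured members higher and none lower, with a median log2 ratio of 0.67. The type I interferon list had 16 of 32 higher and 4 lower, with a median of 0.56. Immediate early and heat shock genes had 12 of 18 higher and 1 lower, median 0.88, and NF-kB and inflammation genes 9 of 20 higher and 1 lower, median 0.48. MHC class I (2 of 20 higher, median 0.33) and MHC class II (1 of 16 higher and 1 lower, median -0.16) had few members past the limit. Type 2 identity had 0 of 22 higher and 4 lower (18.2%, above the 8.15% of all genes), with a median of -0.04.

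**Figure D3:**
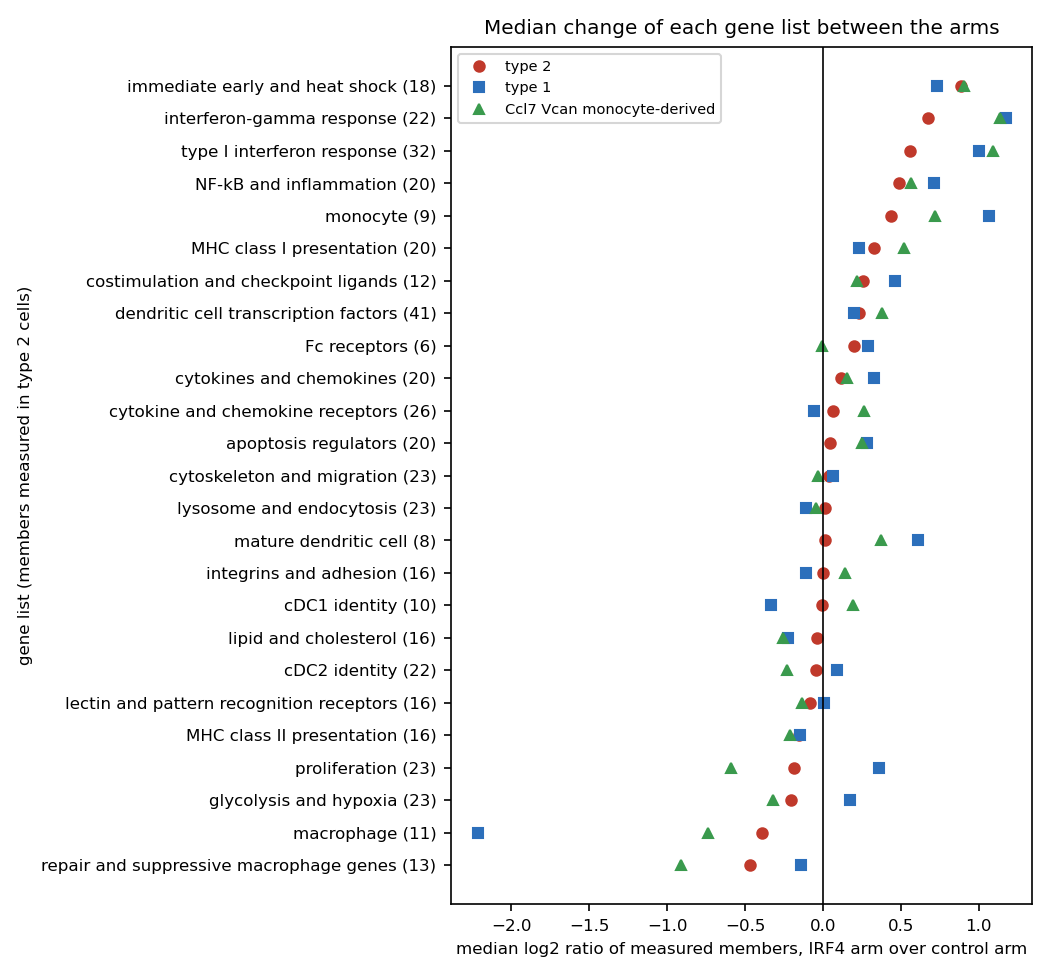
Median log2 ratio, IRF4 arm over control arm, of the measured members of each gene list in type 2 cells (red circles), type 1 cells (blue squares) and monocyte-derived cells (green triangles); numbers give members measured in type 2 cells. The interferon, immediate early and NF-kB lists lie to the right of 0 in the 3 populations plotted.

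Promoters are shown for 4 interferon genes of the results below, because 3 of them hold the interferon-stimulated response element to which IRF proteins bind. The sequences are RefSeq promoters of GRCm38.p6 (mm10), from 250 bases before to 50 after the transcription start, on the gene's strand; capitals mark the core, GAAA followed by any 2 bases and a further GAAA, searched on both strands.
Cxcl10 (chr5:92348840-92349139, minus strand): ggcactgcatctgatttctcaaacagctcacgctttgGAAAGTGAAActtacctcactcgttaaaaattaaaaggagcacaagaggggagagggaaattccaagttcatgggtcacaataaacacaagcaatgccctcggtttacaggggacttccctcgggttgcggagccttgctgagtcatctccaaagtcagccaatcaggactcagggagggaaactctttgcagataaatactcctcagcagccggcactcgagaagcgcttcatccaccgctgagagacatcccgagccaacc
Isg15 (chr4:156200769-156201068, minus strand): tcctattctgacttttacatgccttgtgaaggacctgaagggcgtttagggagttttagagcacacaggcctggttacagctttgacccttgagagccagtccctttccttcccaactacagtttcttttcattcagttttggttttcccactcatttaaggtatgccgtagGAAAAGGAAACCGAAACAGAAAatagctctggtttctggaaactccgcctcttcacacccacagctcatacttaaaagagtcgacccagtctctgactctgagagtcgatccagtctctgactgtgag
Gbp2 (chr3:142620413-142620712, plus strand): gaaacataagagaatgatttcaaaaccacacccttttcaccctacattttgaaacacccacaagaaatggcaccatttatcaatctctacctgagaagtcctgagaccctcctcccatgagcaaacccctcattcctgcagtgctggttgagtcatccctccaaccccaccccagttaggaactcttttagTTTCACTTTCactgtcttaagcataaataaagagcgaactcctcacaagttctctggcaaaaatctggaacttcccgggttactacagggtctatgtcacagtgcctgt
Cxcl9 (chr5:92328030-92328329, minus strand): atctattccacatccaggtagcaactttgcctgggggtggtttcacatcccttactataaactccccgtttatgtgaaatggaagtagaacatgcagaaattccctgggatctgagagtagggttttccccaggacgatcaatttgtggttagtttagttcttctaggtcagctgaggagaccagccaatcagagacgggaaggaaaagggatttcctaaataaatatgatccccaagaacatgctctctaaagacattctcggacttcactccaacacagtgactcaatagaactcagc
The core stood 213 bases before the start of Cxcl10, 59 before that of Gbp2 (as its reverse complement) and in 3 overlapping copies from 78 before that of Isg15, and these letters are not in the Cxcl9 window. Among all 27025 genes with a promoter in the table, 3.99% held the core. It was found for 16 of 26 matched type I interferon genes, 11 of 18 matched interferon-gamma genes, and 0 of 14 immediate early and heat shock genes. A match of letters is a description of the sequence and no sign of binding in these cells.

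Cxcl9, which attracts T cells through CXCR3, had the highest ratio among genes that reached 50 CPM and 20 UMIs in one of the arms. It stood at 1111 CPM in the IRF4 arm and 245 CPM in the control arm, a ratio of 4.54 (4.15 to 4.98). Its UMIs came from 32 of 78 and 35 of 146 cells. They were concentrated, with 4 and 5 cells holding 50% of them and a highest cell of 239.9 per 10000 in the IRF4 arm against 49.2 in the control arm. Thinned to 2000 UMIs, 30.8% and 10.96% of members had a Cxcl9 UMI, against 1.75% and 3.20% of T cells, at median depths of 8085 and 8265 UMIs before thinning. Without the highest cell of each library the log2 ratio was 1.95 in place of 2.18. More cells of the IRF4 arm thus carried Cxcl9, and a few cells set its level.

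Cxcl9 lies on chromosome 5 (chr5:92321347-92328079, minus strand, mm10), as does Cxcl10 (chr5:92346638-92348889, minus strand). Cxcl10, another CXCR3 ligand, stood at 690 and 197 CPM (ratio 3.51, 3.16 to 3.91), but 2 cells in each arm held 50% of its UMIs. Interferon-induced genes that were spread over more cells differed in the same direction. Gbp2, a guanylate-binding protein of cell-autonomous defence, stood at 408 and 157 CPM (ratio 2.597, 2.29 to 2.95) with UMIs in 46 and 56 cells. Isg15, a ubiquitin-like modifier, stood at 265 and 135 CPM (1.96, 1.69 to 2.27) in 47 and 77 cells.

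Irf7, which amplifies type I interferon production, stood at 216 and 92.2 CPM (2.34, 1.97 to 2.78). Irf1, the transcription factor downstream of interferon-gamma, stood at 240 and 148 CPM (1.62, 1.39 to 1.87), with a log2 ratio of 0.40, under the limit, in cells with Mgl2. The immunity-related GTPases Ifi47 (324 and 174 CPM), Igtp (141 and 82.7 CPM) and Irgm1 (211 and 127 CPM) were all called higher.

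The DNA-sensing family members Ifi204 (243 and 101 CPM) and Ifi205 (445 and 202 CPM) and the nucleic acid sensor Zbp1 (225 and 114 CPM) were higher too, Zbp1 with a log2 ratio of 0.46, under the limit, in cells with Mgl2. The antiviral protein Rsad2, at 25.6 and 75.6 CPM, was 1 of the 4 lower type I genes, with Ifit1bl1, Ifit3b and Oasl1. In the control arm 1 cell held 56.1% of Rsad2 UMIs, 69.3% of Ifit1bl1, 44.2% of Ifit3b and 40.5% of Oasl1, so each of these lower values leaned on 1 cell. Without the highest cell of each arm, the log2 ratio of Rsad2 was -0.72 in place of -1.52.

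Over single cells, the summed interferon-gamma list had a median of 16.2 UMIs per 10000 in the IRF4 arm (quartiles 7.88 and 56.8) and 10.5 in the control arm (5.60 and 18.4). The medians lay closer than the upper quartiles, and the 2 ranges overlapped. The type I list had medians of 45.7 (23.7 and 76.9) and 26.2 (15.9 and 44.8). The 2 highest cells for type I genes were in the control arm, whose highest was at 481.8 per 10000 against 200.3 in the IRF4 arm.

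**Figure D4:**
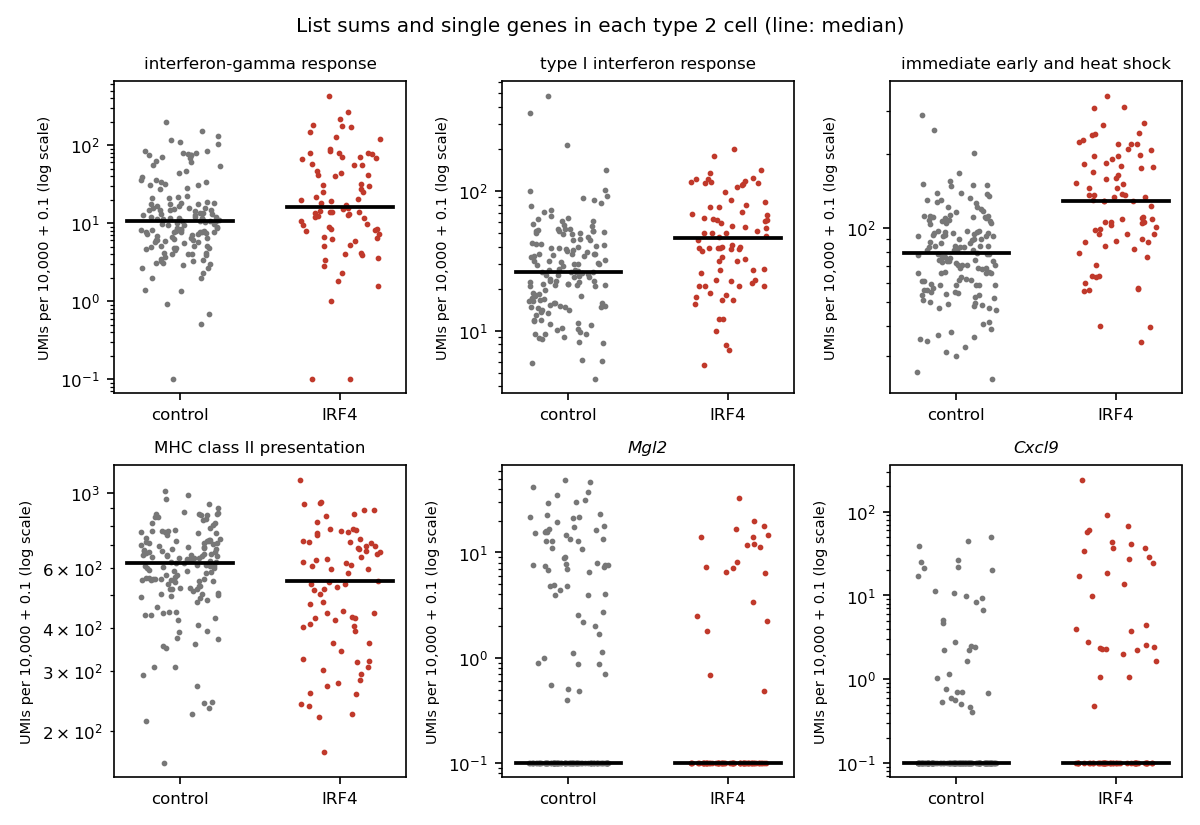
UMIs per 10000, plus 0.1 on a log axis, of 4 summed gene lists and of Mgl2 and Cxcl9 in each of 146 control (grey) and 78 IRF4 (red) type 2 cells; black lines are medians. The IRF4 cells have higher medians for the interferon and immediate early lists, with overlapping ranges, and cells without Mgl2 or Cxcl9 form the row at the bottom.

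Immediate early genes, which cells switch on within minutes of stimulation or of handling, made up much of the rest of the highest ratios. The AP-1 subunit Fos stood at 1173 CPM in the IRF4 arm and 384 CPM in the control arm (3.05, 2.83 to 3.30), Fosb at 413 and 132 CPM (3.13, 2.74 to 3.58), and the phosphatase Dusp1 at 310 and 101 CPM (3.07, 2.64 to 3.58). The stress-induced factor Atf3 stood at 280 and 95.5 CPM (2.93, 2.50 to 3.44). The other genes among the 10 highest ratios were the NF-kB inhibitor Nfkbiz (69.9 and 24.1 CPM), the guanylate-binding protein Gbp9 (52.0 and 15.6 CPM), the calponin Cnn3 (69.1 and 22.7 CPM) and Erdr1 (86.9 and 29.1 CPM). The heat shock gene Hspa1a stood at 754 and 378 CPM (1.99, 1.83 to 2.17). Hspb1, the 1 lower gene of the list, had no UMI in the IRF4 arm and 51.8 CPM in the control arm, of which 1 cell held 90.2%. The control level was 22.3 times a floor of 3 counts over the IRF4 members, and the interval of the ratio reached up to 0.0559. Both values leaned on that 1 control cell and are no bound for the other cells. Fos UMIs were in 70 of 78 and 119 of 146 cells, and the median cell had 8.96 and 2.55 per 10000, so the difference was broad.

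Immediate early genes were also higher on balance in type 1 cells and monocyte-derived cells, with list medians of 0.73 and 0.91 on the log2 scale, beside 0.88 in type 2 cells. Interferon-gamma genes had medians of 1.17 and 1.13 in those populations, and type I genes 1.003 and 1.09. Fos was at 712 and 407 CPM in type 1 cells and 1528 and 481 CPM in monocyte-derived cells. Cxcl9 was at 587 and 260 CPM in type 1 cells and 904 and 264 CPM in monocyte-derived cells. The mature dendritic cells, only 18 and 19 cells, had lower medians of these lists. There 3 of 22 measured interferon-gamma genes were higher and 11 lower (median -0.58). Of 17 immediate early genes 3 were higher and 7 lower (-0.29), and of 30 type I genes 6 were higher and 8 lower (0.11). Other lists also had many members past the limit there: of 19 proliferation genes 2 were higher and 14 lower. The share of all genes called in mature cells is not given here, so these counts are not read as a trait of mature cells. Cxcl9 was at 280 and 504 CPM in mature cells (ratio 0.556, 0.421 to 0.731) and Fos at 175 and 206 CPM (0.849, 0.576 to 1.25). The higher interferon and immediate early levels were thus seen in 3 of the 4 populations, and within these libraries the arm and the library cannot be told apart. Among the 20 and 92 members under the pooled median of the immediate early list, the type I median was 0.47 and the interferon-gamma median 0.50. There Isg15 had a log2 ratio of 1.36, Gbp2 0.94 and Cxcl9 1.41, while Irf8 (0.02) and Il1b (0.08) lay near 0 and Klf2 turned to -0.56.

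**Figure D5:**
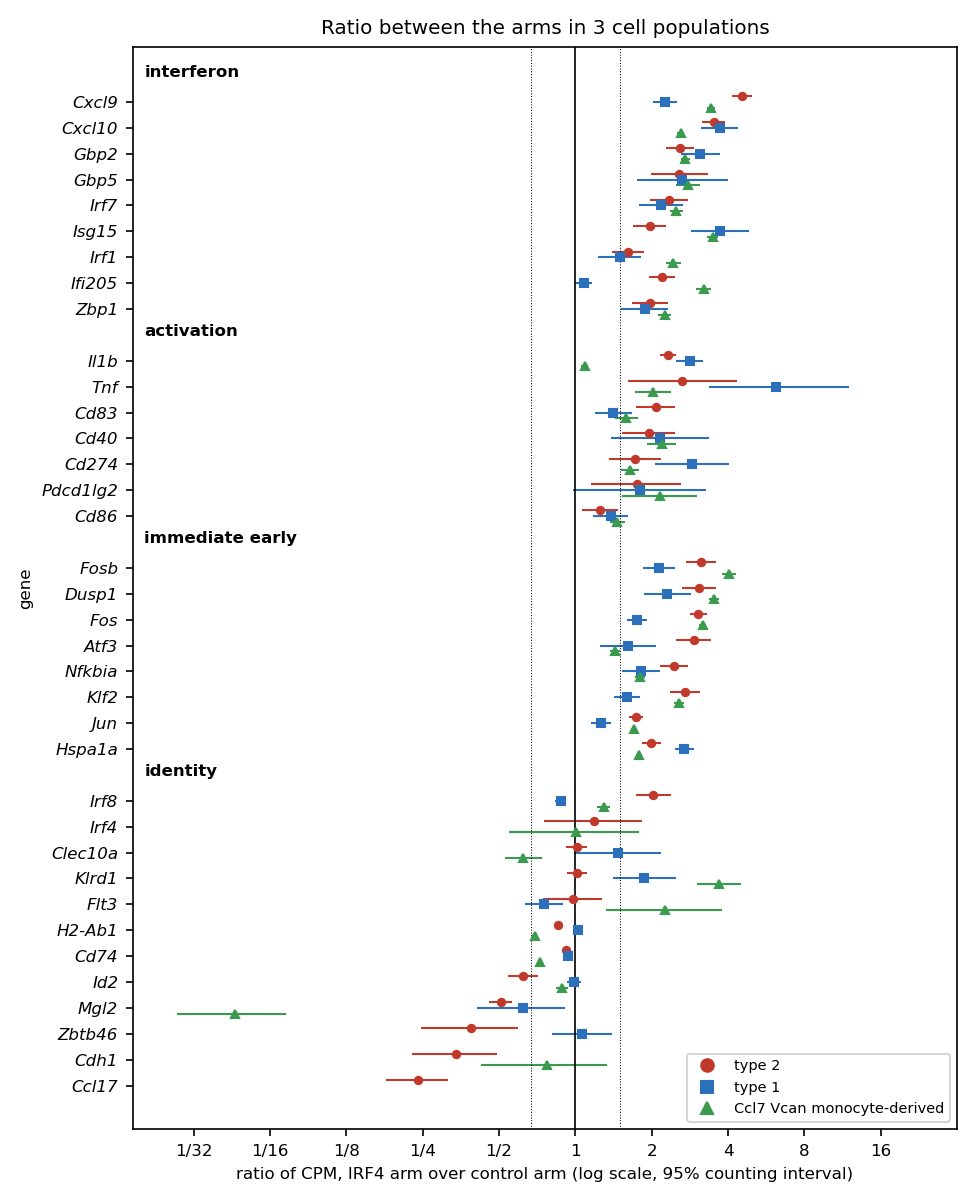
Ratio of CPM, IRF4 arm over control arm, on a log axis with 95% counting intervals, in type 2 cells (red circles), type 1 cells (blue squares) and monocyte-derived cells (green triangles); dotted lines mark 1.5 times, and a value is drawn with at least 5 UMIs in each library. Interferon and immediate early genes lie above 1 in all 3 populations, and Id2, Mgl2, Zbtb46, Cdh1 and Ccl17 lie below 1 in type 2 cells, as Mgl2 does in the other 2.

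Of the activation genes, some were past the limit and others not. Il1b, a pyrogenic cytokine, stood at 1277 CPM in the IRF4 arm and 550 CPM in the control arm (2.32, 2.17 to 2.49), with UMIs in 47 of 78 and 98 of 146 cells. The median cell had 0.954 and 2.02 per 10000, the opposite order, and 5 and 15 cells held 50% of the UMIs. The higher sum of Il1b in the IRF4 arm thus came from few cells. Tnf, at 29.5 and 11.2 CPM, rested on 38 and 33 UMIs.

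Of the co-stimulatory and inhibitory ligands, Cd40, which receives help from T cells, stood at 102 and 52.2 CPM (1.95, 1.53 to 2.48). Cd274, which encodes PD-L1, stood at 102 and 59.0 CPM (1.72, 1.36 to 2.18). Its ratio came under 1.5 times in 6 alternatives. Among them were leaving out the highest cell of each library, weighting every cell equally and thinning to 2000 UMIs per cell (log2 ratio 0.13). Cd83, a maturation marker, stood at 192 and 92.8 CPM (2.07, 1.74 to 2.47). Its log2 ratio was 2.74 in cells with Mgl2 and 0.23, under the limit, in cells without. Cd86 was at 180 and 144 CPM and Cd80 at 13.2 and 9.83 CPM, neither past the limit. Il12b, the interleukin 12 subunit of mature cells, had 0 and 2 UMIs, and Ccr7, the receptor for migration to lymph nodes, came from 1 and 4 cells.

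Few antigen presentation genes were past the limit of 1.5 times, but smaller differences went beyond counting error. Of 20 class I genes, 15 had an interval of the ratio above 1 and 2 below. Of 16 class II genes, with H2-Ab1 among them, 3 had an interval above 1 and 8 below. H2-Ab1 was used by the rule, and H2-Aa (8488 and 9740 CPM), H2-Eb1 (7694 and 8765 CPM) and the invariant chain Cd74 (22629 and 24550 CPM) were within 1.5 times. The class II list of the median cell summed to 549 and 620 UMIs per 10000, and the lower quartile of the IRF4 arm (395) was further below that of the control arm (521) than the upper quartiles were apart (713 and 715). Of class I genes, Tapbp, which loads peptide onto class I, stood at 329 and 206 CPM (1.60, 1.41 to 1.81) and was higher, as was H2-Q6 (60.5 and 34.6 CPM). Without the highest cell of each library H2-Q6 had a log2 ratio of 0.46, under the limit, and Tapbp 0.66. Tapbp came under the limit in 3 other alternatives, with a lowest value of 0.45 at 2000 UMIs per cell. H2-K1 stood at 1856 and 1551 CPM and H2-D1 at 2865 and 2194 CPM, within 1.5 times.

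Among transcription factors, 10 of 41 measured were higher (24.4%) and 3 lower (7.32%), where 5.93% and 8.15% of all genes were. The share of lower factors was thus near that of all genes. Irf8 stood at 227 CPM in the IRF4 arm and 111 CPM in the control arm (2.03, 1.73 to 2.39), but 1 cell held 26.0% of the IRF4 arm's UMIs and 4 cells 50%. In type 1 cells the ratio of Irf8 was 0.876 (0.833 to 0.921). In the members under 50 Lyz2 UMIs per 10000 the log2 ratio of Irf8 in type 2 cells was 0.49, under the limit. It also came under the limit in members with at least 40 H2-Ab1 UMIs per 10000. Klf2, a factor of quiescence and trafficking, stood at 352 and 130 CPM (2.71, 2.36 to 3.11), and Notch2, a receptor that shapes one branch of type 2 cells, at 100 and 63.0 CPM (1.59, 1.26 to 1.999). Notch2 had a log2 ratio of 0.38, under the limit, in members under the median immediate early level.

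Lower factors were Id2, which restrains E proteins in the dendritic lineage, at 219 and 351 CPM (0.624, 0.545 to 0.712), Zeb2 at 214 and 328 CPM (0.652, 0.569 to 0.747), and Zbtb46, which separates conventional dendritic cells from other myeloid cells, at 20.2 and 51.8 CPM (0.389, 0.246 to 0.593). Id2 had a log2 ratio of -0.46, within the limit, in cells without Mgl2 and -1.08 in cells with it. Zbtb46 UMIs were in 23 of 78 and 85 of 146 cells. In type 1 cells Zbtb46 stood at 70.0 and 65.6 CPM (ratio 1.07, 0.812 to 1.39). The interval of the type 2 ratio lay below that of type 1 cells, which is a statement about these 2 libraries.

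Other genes were lower in the IRF4 arm. Cdh1, which encodes E-cadherin, stood at 25.6 and 75.6 CPM (0.339, 0.228 to 0.490), in 14 of 78 and 71 of 146 cells, and was close to absent from type 1 cells (0 and 0.377 CPM). Of 16 measured genes of the lectin and pattern receptor list, 6 were lower (37.5%, where 8.15% of all genes were) and none higher. The lectin Cd209d, not in that list, was higher. The lower ones were Clec4n, Clec4a2, Clec4e, Clec5a, Mrc1 and Nod2, of which Clec4a2 and Clec4e changed sign under at least 1 alternative. Clec4n, which recognises fungal mannans, stood at 142 and 237 CPM (0.600, 0.507 to 0.707), and the mannose receptor Mrc1 at 54.3 and 113 CPM (0.482, 0.367 to 0.625). Of 11 macrophage genes measured, 5 were lower (45.5%, beside the same 8.15% of all genes), Mrc1 among them. Mrc1 was lower in monocyte-derived cells too, at 84.7 and 442 CPM. Ccl17, a chemokine that attracts CCR4-bearing T cells, stood at 45.8 and 191 CPM (0.240, 0.180 to 0.314). In the control arm 1 cell held 62.2% of Ccl17 UMIs, and without the highest cell of each arm the log2 ratio was -1.37 in place of -2.04. Monocyte-derived cells had 0 and 6.81 CPM of Ccl17, and mature cells 544 and 58.3 CPM. The other genes among the 10 lowest ratios were Hmox1, which degrades haem (15.5 and 138 CPM), the fatty acid carrier Fabp5 (76.1 and 211 CPM), the metalloprotease Adam8 (17.9 and 53.2 CPM), the histone gene Hist1h1b (37.3 and 112 CPM) and the paired receptor gene Sirpb1c (32.6 and 83.0 CPM). A single cell weighed as much for Ccl5, at 20.2 and 149 CPM, where 1 control cell held 63.3%. Hbb-bs, a haemoglobin gene of red cells, had no UMI in IRF4 members and 30.8 CPM in control members, in 65 of 146 cells, and stood at 1.77 and 763 CPM in monocyte-derived cells, a difference between the libraries that was not confined to type 2 cells.

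Mgl2, a lectin beside Clec10a on chromosome 11, divided the members. It stood at 333 CPM in the IRF4 arm and 655 CPM in the control arm (0.509, 0.457 to 0.565), as against 28.3 and 45.6 CPM in type 1 cells and 2.89 and 63.5 CPM in monocyte-derived cells, was absent from most cells, and reached 32.6 and 49.0 UMIs per 10000 in the highest. After thinning to 2000 UMIs, 18 of 78 (23.1%, 14.3% to 34.0%) and 42 of 146 (28.8%, 21.6% to 36.8%) had an Mgl2 UMI, against 0.321% and 2.22% of T cells. These thinned shares lay within counting error of each other. Before thinning, at unequal depths, 21 members (26.9%) and 65 members (44.5%) had one. The split used Mgl2 alone, so the other genes below are descriptions of cells chosen by it.

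Cells with Mgl2 had more Mrc1 than cells without, at 120 against 29.8 CPM in the IRF4 arm and 195 against 71.3 CPM in controls. In the same order, Il1r2 was at 623 against 108 CPM and at 342 against 216 CPM. Cd7 was lower in cells with Mgl2, at 77.2 against 233 CPM and 84.0 against 210 CPM. So were Ly6c2, a monocyte surface gene (37.2 against 96.9 CPM, 20.2 against 76.4 CPM), Plac8 (849 against 1679 CPM, 513 against 1281 CPM) and the proliferation marker Mki67 (2.86 against 83.1 CPM, 25.3 against 140 CPM). Cxcl9 was higher without Mgl2, at 1436 against 240 CPM and 319 against 97.2 CPM. These 7 genes had the same order in both arms, although cells with Mgl2 were also deeper, with medians of 20725 against 13508 UMIs and 22888.5 against 16967.5.

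Il1b did not follow this order. In the IRF4 arm it stood at 2764 CPM in cells with Mgl2 and 722 CPM in cells without, and in the control arm at 478 and 587 CPM. Among cells with Mgl2 the log2 ratio of Il1b between the arms was 2.53, and among cells without Mgl2 0.30. Cells with Mgl2 numbered only 18 in the IRF4 arm. The member highest in Il1b, at 131 per 10000, was in that arm and had Mgl2 UMIs before thinning, so this difference may lean on few cells. Cycling was marked by a UMI of Mki67, Top2a, Birc5, Cdk1 or Ccnb2 in 21 of 78 members (26.9%) and 41 of 146 (28.1%), without thinning. Of 23 proliferation genes 3 were higher and 5 lower between the arms, larger shares than the 5.93% and 8.15% of all genes. The interval of the ratio lay above 1 for 4 of the 23 genes and below 1 for 10. In the IRF4 arm 1 cell held 80.6% of the Ube2c UMIs and 82.8% of the Cenpf UMIs.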

How the data were processed

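Single-cell 3' RNA libraries (10x Genomics kit of version 3) held 1 library per group, and the groups were taken from the labels. The protocol also speaks of nuclei, although the material was sorted as cells. The deposited values are raw counts of UMIs, 1 for each gene in each barcode. The authors used Cell Ranger 3.0.2, STAR 2.6 and the build mm10, per the submitters' processing notes. The files name 28692 genes, and 58 symbols belong to more than 1 identifier.

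For each library the UMIs of all members were added and divided by their total to give CPM. For log2 ratios 1 CPM was added to each level, printed ratios are plain, and a gene was called at 1.5 times with 10 CPM in either library. Levels and ratios have exact Poisson and conditional binomial intervals, shares exact Clopper-Pearson intervals, the ratio of shares a log-scale interval. The comparison populations were type 1 (Xcr1 with Clec9a at least 2 UMIs, no Cd209a), mature (Fscn1 with Ccl22 at least 2, and Ccr7) and monocyte-derived cells (Ccl7 with Vcan at least 2, no Cd209a), without Cd3 or Cd79a. T cells of the background had at least 3 Cd3 UMIs.

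Named genes were fixed primary genes, list members called between arms or otherwise abundant, and the 10 highest and lowest ratios at 50 CPM and 20 UMIs. Rankings left out the genes of the rule, ribosomal, mitochondrial, immunoglobulin and T cell receptor genes and unnamed gene models. The members and lists were chosen with earlier results of these data known. Of the listed genes, 10 are not named in the files under the symbol used and were not analysed here. Scrublet at an expected rate of 0.06 marked 1 of 6371 and 1 of 5676 cells and did not work, so no doublet was removed. Calls were also run on simulated data. The result of that run is not given here, and no support for the calls is drawn from it. In all, 21 alternatives were run, 6 of them chosen after seeing the data. Tools were Python 3.11.15, numpy 2.4.6, scipy 1.17.1, pandas 2.3.3, scanpy 1.11.5 and matplotlib 3.10.9. Promoters came from RefSeq.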

Additional observations from a re-analysis of the deposited data

Results flagged for a closer look

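Several genes were called in one direction between the arms in type 2 cells and in the other direction in another population. None of these differences was tested, with 1 library per arm, and each value below is a log2 ratio between them, above 0 where the IRF4 arm is higher. Against both type 1 and monocyte-derived cells, Ccl5 had -2.83 in type 2 cells beside 1.23 and 1.41, and Rsad2 -1.52 beside 1.04 and 1.64; 1 control cell held 63.3% of the type 2 Ccl5 UMIs and 56.1% of those of Rsad2. Against type 1 cells, Hmox1, a haem-degrading enzyme, had -3.08 beside 1.54, the fatty acid carrier Fabp5 -1.46 beside 0.93, and the metallothionein Mt1 -0.62 beside 2.17. Also against type 1 cells, the replication genes Mcm3 and Mcm6 had -0.75 and -1.03 beside 0.64 and 0.82, and the co-stimulatory ligand Tnfsf9 -0.82 beside 2.11. Against monocyte-derived cells, Hspb1 had -5.72 beside 0.76, with 90.2% of its control UMIs in 1 cell, and the cell cycle gene Ube2c 0.95 beside -0.60, with 80.6% of the IRF4 arm's UMIs in 1 cell. Against mature dendritic cells, which numbered 18 and 19, there were 13 such genes. The chemokines Cxcl9 and Ccl17 had 2.18 and -2.04 in type 2 cells beside -0.84 and 3.20, and the factor Id2 -0.68 beside 1.14. Mgl2 had -0.97 beside 6.44, a value set by the 1 CPM added, since control mature cells had no Mgl2 UMI. The immediate early genes Egr1 and Jun had 1.49 and 0.80 beside -2.37 and -0.89, and the heat shock genes Hspa1a and Hspa1b 0.99 and 0.66 beside -2.51 and -3.59. The interferon-induced GTPases Ifi47 and Igtp had 0.89 and 0.77 beside -1.47 and -1.74. Ly6a, Serpina3g and Fgl2 had 0.67, 0.84 and 0.62 beside -1.37, -0.78 and -1.64.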

How the results depend on the processing

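The share of type 2 cells over all kept cells kept its direction under every alternative run, and its ratio moved from 0.476 to 0.939 with cells without lymphoid transcripts as denominator. The count of higher genes, 449, was 694 without members carrying Ly6c2, 1089 in cells with Mgl2, 954 in cells under the median immediate early level, 1745 at 2000 UMIs per cell, 149 at 50 CPM and 1394 at 1 UMI. The count of lower genes, 617, was 1585, 1077, 2233, 78 and 1903 under the last 5 of these, 373 with no limit on Cd3 and Cd79a, and 391 with a pseudocount of 5 CPM. The counts change by construction where fewer cells, UMIs or genes enter; otherwise the cause was not tested. Over all 20 alternatives for lists, the median log2 ratio ranged from 0.45 to 0.67 for type I interferon genes and from 0.50 to 0.91 for interferon-gamma genes. TMM scaling shifted the log2 ratios by 0.03.

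Of 80 named genes, 64 were past 1.5 times, and 38 of these came under it or changed sign under at least 1 alternative. Among their 1272 values, 21 changed sign. In cells with Mgl2 these were Ccl4 (-0.38), Ccl5 (1.41), Ccr7 (5.25) and Erdr1 (-0.48), and in cells without it Ccl17 (0.13) and Pdcd1lg2 (-0.039). Under the median immediate early level they were Cebpb (-0.083), Il1rn (-0.88), Klf2 (-0.56), Klf6 (-0.22), Mki67 (0.35), Ptgs2 (-0.99) and Tnf (-0.43). At 2000 UMIs they were Ccr7 (0.29), Clec4a2 (0.074), Pdcd1lg2 (-1.54) and Tnfsf9 (0.055). With no limit on Cd3 and Cd79a they were Ccl5 (0.23) and Hist1h1b (0.076), and Clec4e was at 0.17 with at least 2 Cd209a UMIs and 0.0072 without Ly6c2. Of the 16 genes not past the limit, 12 crossed 0 under at least 1 alternative. The cause of these changes was not tested. A count of 3 UMIs is 2.33 CPM over the IRF4 members and 1.016 CPM over the control members. No paired analysis was possible because each group has 1 library.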
